A study of Homo sapiens with 6 samples.

Results

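The proteasome genes analysed here were the protein-coding genes whose symbols begin with PSMA, PSMB, PSMC, PSMD, PSME, PSMF or PSMG followed by a digit. PSMB8 and PSMB9 were left out of the rule. These were 45 of 24526 genes in the table, and all 45 had enough reads to be tested. Their RNA was measured in WM266.4 cells, an established human melanoma line, 48 h after transfection with a single siRNA specific for RIPK4 (RIPK4.si, 3 libraries) or with a negative control siRNA (neg.si, named control.si in the sample labels, 3 libraries). All 6 libraries came from the same line, the siRNA was the one labelled difference, and the silencing was transient.

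The proteasome is the protease complex that degrades ubiquitin-tagged proteins in the cytosol and nucleus. Its barrel, the 20S core particle, is built of stacked rings of alpha and beta subunits, with the active sites on the beta subunits inside. A 19S regulatory particle on either end recognises, unfolds and threads in the substrate, while other caps and inhibitors compete for the same surface, and dedicated chaperones assemble the particle without being part of the finished complex. When proteasome activity is short, the transcription factor NFE2L1 raises the subunit genes together in mammalian cells.

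RIPK4, the silenced kinase gene, was counted 2656, 2298 and 1739 times in the neg.si libraries and 585, 482 and 670 times in the RIPK4.si libraries. As CPM, the counts scaled to the normalised library size, neg.si stood at 72.3 ± 15.9 and RIPK4.si at 19.4 ± 2.47 (SD, n = 3). The log2 fold change was -1.90 (SE 0.203, adjusted p = 0.0102, edgeR). The libraries held between 28464057 and 31688095 counts on genes. Replicate 3 of neg.si lay farthest from the other libraries on the first principal component. In it the deviation of a gene from its mean over libraries fell with the GC content of its transcript (Spearman rho -0.547 across genes), whereas in neg.si replicate 1 it rose (rho 0.555). All 7 melanocyte lineage markers examined were listed, with summed levels of 3547 to 3985 CPM in neg.si and 2600 to 2717 CPM in RIPK4.si. Of the 7, 4 were lower with an unadjusted p under 0.05 (edgeR), as were 6% of all genes tested. Their median log2 fold change was -0.48. Among them PMEL, which encodes a melanosome fibre protein, was called lower, and any part of these marker levels in the proteasome values was not tested. The keratinocyte markers KRT5 and KRT14 were at most 0.614 CPM in any library, and KRT1 was not listed. KRT10, the other keratinocyte marker, was at 10.8, 10.2 and 10.5 CPM in neg.si and 13.9, 16.1 and 11.8 CPM in RIPK4.si, without overlap (log2 fold change 0.41, SE 0.176, adjusted p = 0.438, edgeR), and its part in the proteasome values was not tested. The fibroblast and leukocyte marker lists summed to at most 2.58 CPM.

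After RIPK4 silencing, PSMD10 was the only proteasome gene that passed the test. It encodes gankyrin, an ankyrin-repeat chaperone of the 19S base that binds the ATPase PSMC4 and that is also known as an oncoprotein. Its transcript was at 46.1% of the neg.si level in RIPK4.si. No proteasome gene was called higher. Across all 16297 genes tested with edgeR, 0.767% were called at an adjusted p under 0.05, 0.374% as higher and 0.393% as lower. Of the 45 proteasome genes, 33 had a positive and 12 a negative log2 fold change, and 38 lay within 0.25 of 0 on the log2 scale. When each library in turn was left out, 12 kept a positive and 5 a negative sign throughout, and 28 changed sign at least once. The median log2 fold change was 0.10 over the proteasome genes and -0.023 over all genes tested. The 41 proteasome genes with an unadjusted p of at least 0.05 had log2 fold changes from -0.28 to 0.61 and adjusted p-values of at least 0.623 (edgeR). Standard errors among the 45 ran from 0.134 to 0.350, with a median of 0.190. A change under 1 on the log2 scale could therefore go uncalled, as did PSMD11 at 0.51 (SE 0.144) and PSMA1 at 0.94 (SE 0.267).

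**Figure D1:**
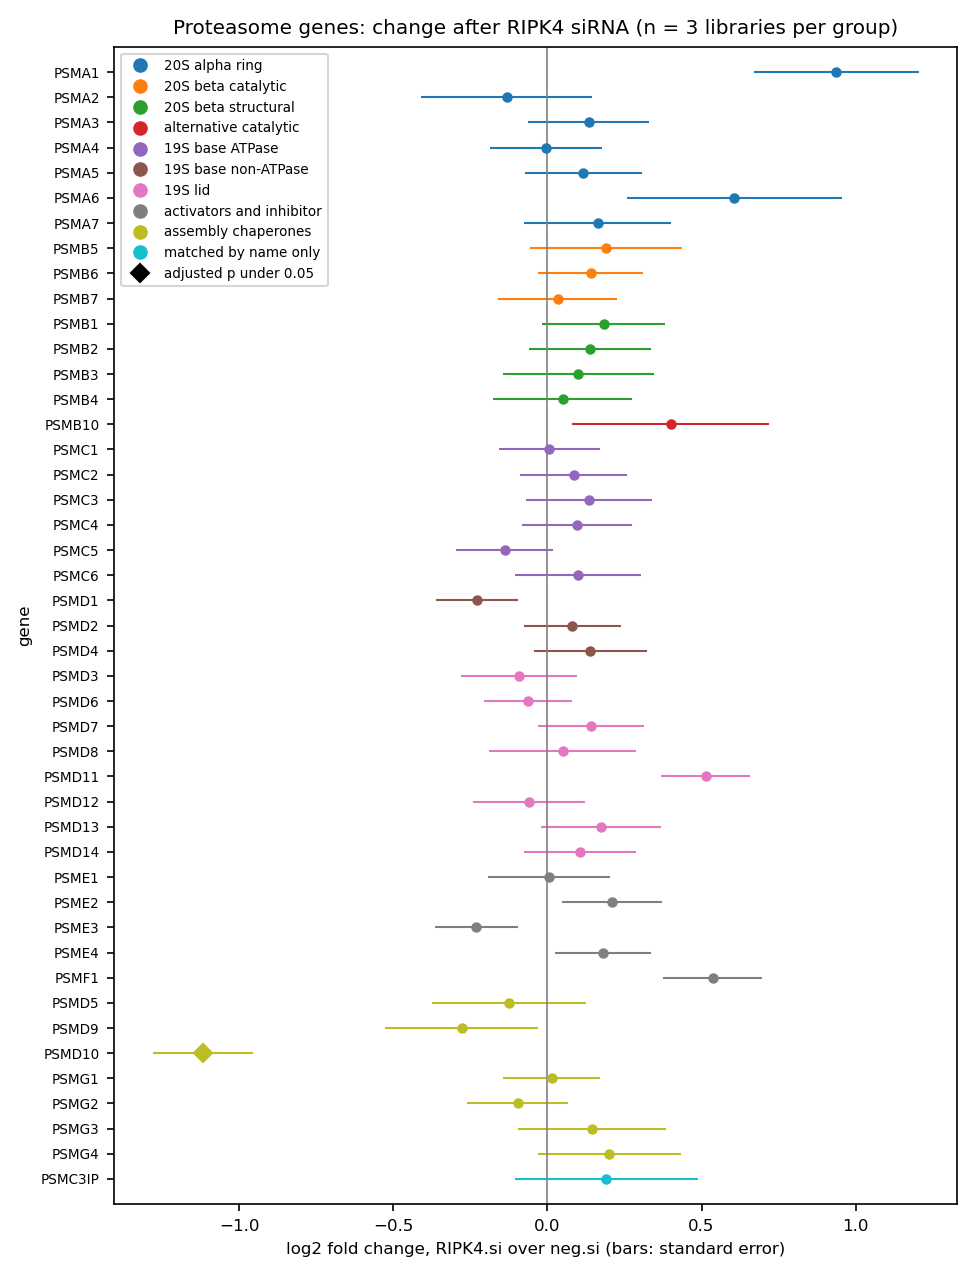
Log2 fold change of each of the 45 proteasome genes, RIPK4.si over neg.si, with the standard error as a bar (edgeR, n = 3 libraries per group), coloured and ordered by role. PSMD10, the diamond at -1.12, passed an adjusted p of 0.05, and most other genes lie close to 0.

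PSMD10 lies on the minus strand of chromosome X (chrX:108084207-108091549, GRCh38). In replicate order it was counted 1583, 1514 and 1783 times with neg.si, and 596, 778 and 789 times with RIPK4.si. As CPM the values were 51.1, 50.4 and 56.1 in neg.si and 20.3, 26.9 and 25.4 in RIPK4.si. Every RIPK4.si library was below every neg.si library, and the gap between the groups was wider than the spread within either. In bulk RNA, less transcript per cell and fewer cells with the transcript cannot be told apart. The log2 fold change was -1.12 (SE 0.163, adjusted p = 0.0329, edgeR). An exact permutation test over the 6 libraries gave a two-sided p = 0.1, the smallest that 3 against 3 libraries can reach. The fold change ran from -1.19 to -0.996 when 1 library at a time was left out, but the adjusted p rose to as much as 0.214 (edgeR), and PSMD10 was no longer called without neg.si replicate 2 or without RIPK4.si replicate 1, 2 or 3, and RIPK4 itself lost its call in the same 4 fits. The processed pseudogene PSMD10P1 on chromosome 20, which resembles the PSMD10 transcript, held at most 6 counts in any library.

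The 3′ UTR of the canonical PSMD10 transcript holds 2 copies of the 7-base sequence ACAGCTT. This sequence was looked up because earlier results of these same data had related it to lower transcript levels across genes, and so its presence here is a description only. The first copy opens the 767-base 3′ UTR directly after the stop codon, and the second begins at position 169. Both are shown 5′ to 3′ on the transcript strand with the 7 bases in capitals, from GENCODE release 44 on GRCh38.
PSMD10 3′ UTR position 1, chrX:108084956-108084973, minus strand: ACAGCTTggatttattct
PSMD10 3′ UTR position 169, chrX:108084788-108084816, minus strand: gttcgaagcttACAGCTTgttttccaggc

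For each gene the longest 3′ UTR in the annotation was searched. Of the 45 proteasome genes 7 held ACAGCTT (15.6%), as did 15.9% of the 12954 tested genes with such a region. The shares were near each other but were not adjusted for length. The median length searched was 496 bases in the proteasome genes and 1512 bases in all these tested genes. The 7 were PSMC1, PSMC2, PSMD9, PSMD10, PSME3, PSME4 and PSMG4. In PSMC2 and PSMG4 the transcript searched is not the canonical one, and the canonical transcript was not searched. PSMD10 and PSMG4 were the 2 with at least 2 copies, which 2.79% of the tested genes had. Of the 7 genes, 4 had a positive and 3 a negative log2 fold change, with a median of 0.0054, against 0.11 for the proteasome genes without the sequence. Over all tested genes the medians were -0.10 with it and -0.000709 without it, again without adjustment for length. PSMD9 and PSME3, which have 1 copy each, had log2 fold changes of -0.28 (SE 0.249) and -0.23 (SE 0.134). PSME4 and PSMC1, also with 1 copy in the canonical transcript, had values of 0.18 and 0.0054. Any part of the sequence in the PSMD10 difference was not tested.

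In the other direction, 3 proteasome genes had an unadjusted p under 0.05, as did 4.85% of all genes tested, and none of the 3 passed the adjustment. On the lower side PSMD10 was the only such gene, against 6% of all genes tested. PSMD11, a scaffold subunit of the 19S lid whose abundance is known to limit assembled 26S proteasome in some cell types, is at chr17:32444379-32483319. Its levels were 98.3, 113 and 120 CPM in neg.si and 150, 166 and 157 CPM in RIPK4.si, with no overlap between groups. The log2 fold change was 0.51 (SE 0.144, adjusted p = 0.180, edgeR). With each library's trend on GC content removed, where 3.28% of all genes were called, PSMD11 was called as well (log2 fold change 0.56, adjusted p = 0.0469, edgeR).

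PSMF1, also called PI31, encodes a protein that inhibits the isolated 20S core and acts as an adaptor for proteasome transport. At chr20:1113240-1189415, its levels were 59.8, 58.0 and 47.8 CPM in neg.si and 70.2, 89.0 and 80.9 CPM in RIPK4.si. The groups did not overlap, although neg.si replicate 1 and RIPK4.si replicate 1 differed by less than the range within the RIPK4.si group. The log2 fold change was 0.54 (SE 0.161, adjusted p = 0.212, edgeR).

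PSMA1 encodes an alpha-ring subunit and is at chr11:14504874-14643635. It was counted 179, 270 and 389 times in neg.si and 430, 576 and 534 times in RIPK4.si, which is low for a core subunit. The values did not overlap, but within neg.si the values themselves ranged from 5.78 to 12.2 CPM. The log2 fold change was 0.94 (SE 0.267, adjusted p = 0.186, edgeR). With DESeq2, which called 2.91% of the genes it gave an adjusted p, PSMA1 was called higher (adjusted p = 0.0247), and PSMD10 was the only other proteasome gene called. Without neg.si replicate 3 PSMA1 was called by edgeR with a log2 fold change of 1.23. The PSMA1 transcript overlaps another gene, as described below.

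**Figure D2:**
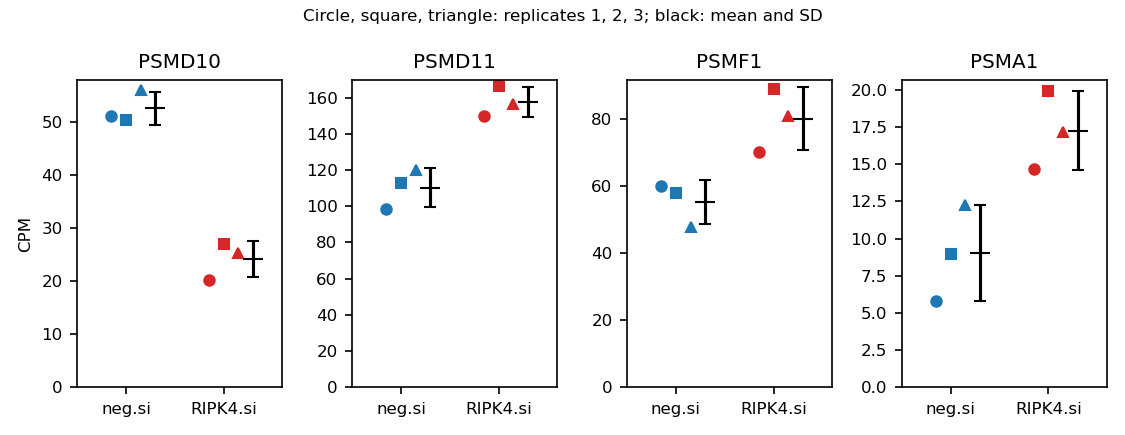
CPM of PSMD10, PSMD11, PSMF1 and PSMA1 in each library, neg.si in blue and RIPK4.si in red, with circle, square and triangle for replicates 1, 2 and 3 and the group mean and SD in black; each vertical axis starts at 0. The groups do not overlap in any of the 4 genes, and the separation is widest relative to the spread for PSMD10.

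Groups that did not overlap were found for 3 proteasome genes on the higher side (6.67%; 8.23% of all genes tested) and 3 on the lower side (6.67%; 9.4% of all genes tested), so neither share exceeded that of all genes. The other pair on the lower side were PSMD1 and PSME3. PSMD1, the large scaffold subunit of the 19S base, was at 179, 180 and 177 CPM in neg.si and 158, 157 and 143 CPM in RIPK4.si. PSME3, the subunit of the nuclear REG-gamma activator, was at 162, 164 and 152 CPM in neg.si and 134, 143 and 131 CPM in RIPK4.si. Both had a log2 fold change of -0.23 and adjusted p-values of 0.635 and 0.626 (edgeR).

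By role, the 3 catalytic subunits of the constitutive core had log2 fold changes between 0.033 and 0.19, and none was called. PSMB5, the chymotrypsin-like subunit and the main target of bortezomib, was at 151, 102 and 75.2 CPM in neg.si and 119, 147 and 108 CPM in RIPK4.si (log2 fold change 0.19, SE 0.247). The groups overlapped, and the neg.si libraries alone spanned a wider range than the RIPK4.si libraries. PSMB6, the caspase-like subunit, had a log2 fold change of 0.14 (SE 0.170), and PSMB7, the trypsin-like subunit, one of 0.033 (SE 0.193). The 4 structural beta subunits had values from 0.050 to 0.18 and the 7 alpha subunits values from -0.13 to 0.94.

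The alternative catalytic subunit PSMB10, which replaces PSMB7 in the immunoproteasome, was counted 61 to 162 times per library and overlapped between groups (log2 fold change 0.40, SE 0.321). Its partner subunits PSMB8 and PSMB9, which lie outside the rule, were at 52.2 ± 15.4 CPM and 18.6 ± 3.90 CPM in neg.si and 49.2 ± 7.16 CPM and 18.2 ± 3.39 CPM in RIPK4.si (SD, n = 3). Their log2 fold changes were -0.084 and -0.031, with adjusted p-values of 0.961 and 0.985 (edgeR). PSMB11, the thymus-specific catalytic subunit, and PSMA8, the alpha subunit of the testis proteasome, were not listed in the table, in which every gene has a total of at least 6 counts over the 6 libraries.

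In the 19S particle, the 6 ATPases of the base had log2 fold changes from -0.14 (PSMC5) to 0.14 (PSMC3), the 3 other base subunits values from -0.23 to 0.14 and the 8 lid subunits values from -0.092 to 0.51. None of these 17 genes was called. Among the activators, PSME1 and PSME2, the subunits of the interferon-inducible PA28 cap, had log2 fold changes of 0.0053 (SE 0.197) and 0.21 (SE 0.163), and PSME4, the subunit of the PA200 activator, one of 0.18 (SE 0.157). PSME2 overlapped between groups.

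The assembly chaperones stood at a summed level of 225, 234 and 238 CPM in neg.si and 192, 205 and 200 CPM in RIPK4.si. The groups did not overlap. PSMD10 was then removed because it was the called gene. The other 6 chaperones summed to 174, 184 and 182 CPM and to 172, 178 and 175 CPM, which overlapped. The means of the sum were 232 CPM in neg.si and 199 CPM in RIPK4.si with PSMD10, and 180 and 175 CPM without it. Most of the difference in the sum thus lay with PSMD10. PSMD5 and PSMD9, which like PSMD10 bind ATPases during assembly of the 19S base, had log2 fold changes of -0.12 (SE 0.248) and -0.28 (SE 0.249). PSMG1 to PSMG4, which guide assembly of the 20S core, lay between -0.097 and 0.20.

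The summed level of the 45 proteasome genes varied more between libraries of a group than between the group means. It was 5893, 5296 and 4384 CPM in neg.si and 5082, 6340 and 5017 CPM in RIPK4.si. Neg.si replicate 3 was lowest and RIPK4.si replicate 2 was highest. The median deviation of the 45 genes from their own mean log2 CPM was, in replicate order, 0.14, 0.017 and -0.34 with neg.si, and -0.035, 0.28 and -0.077 with RIPK4.si. Of the 45 genes, 29 were lowest of all 6 libraries in neg.si replicate 3 (64.4%; 29.0% of all genes tested) and 23 were highest in RIPK4.si replicate 2 (51.1%; 19.2% of all genes tested). With the trend on GC content removed, the median deviations in these 2 libraries were -0.29 and 0.33. The GC content of the proteasome genes ran from 32.0% to 61.7%, with a median of 48.2% against 47.9% in all tested genes. The part of GC content in this pattern was not tested.

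**Figure D3:**
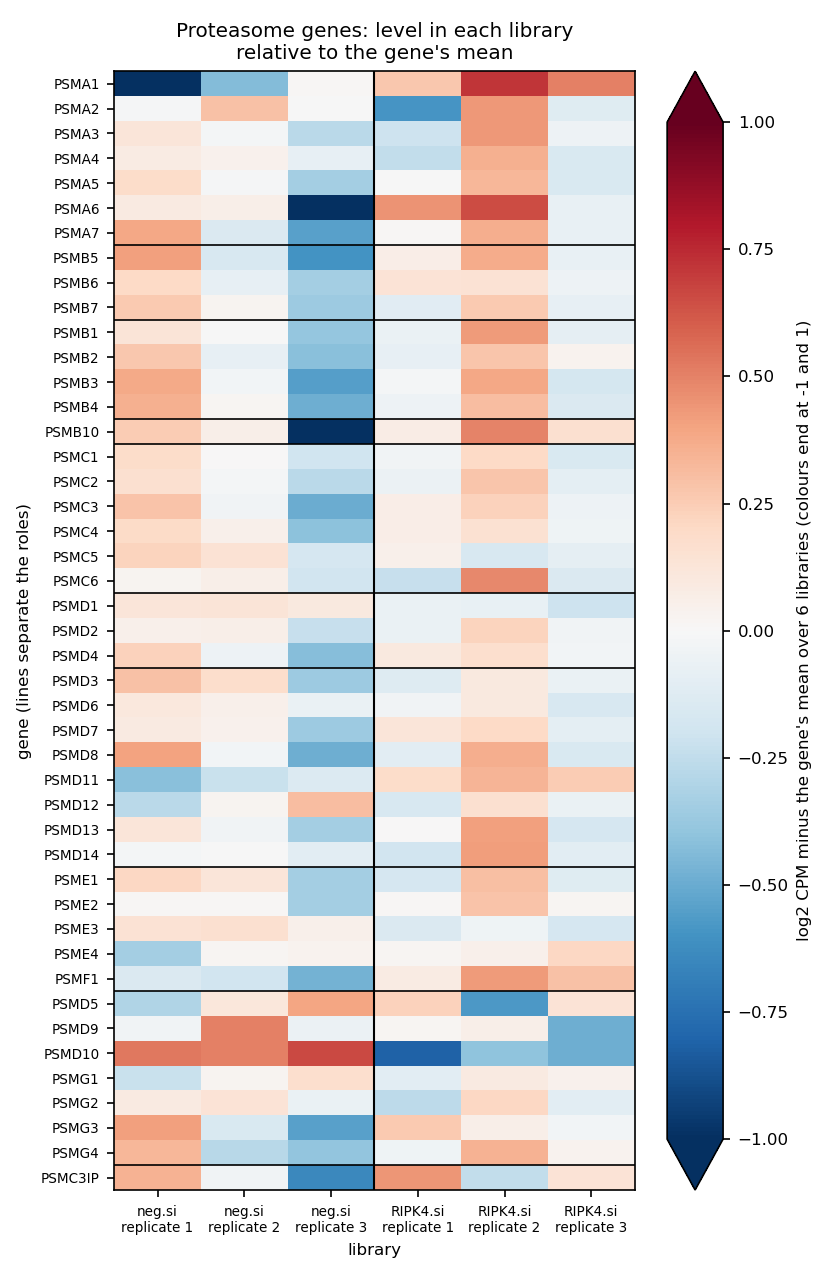
Log2 CPM of each proteasome gene minus its mean over the 6 libraries, in blue where lower and red where higher, with libraries across, genes down and lines between roles; colours end at -1 and 1. Most genes are blue in neg.si replicate 3 and red in neg.si replicate 1 and RIPK4.si replicate 2, while PSMD10 changes colour between the groups and PSMD5 shows the reverse of the common pattern.

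The small positive median of the proteasome genes depended on the libraries included. Without neg.si replicate 3 the median log2 fold change was -0.015, with 18 genes higher and 27 lower. Without RIPK4.si replicate 2 it was -0.017, with 21 higher and 24 lower. Without neg.si replicate 1 it rose to 0.24, with 34 higher and 11 lower. The first 2 were the libraries where most of these same genes were lowest and highest. A lower median without either therefore follows from the choice. The cytosolic ribosomal protein genes deviated the same way and further in neg.si replicate 3, with a median of -0.56 and 69 of 74 lowest there, while they were highest in neg.si replicate 1 (median 0.37, 39 of 74 highest there), followed by RIPK4.si replicate 2 (0.34). The 8 genes of the chaperonin TRiC, another large cytosolic complex, were highest in RIPK4.si replicate 2 (median 0.17) but lowest in RIPK4.si replicate 1 (-0.19, 4 of 8 lowest there), with -0.15 in neg.si replicate 3, where 2 of 8 were lowest. These orders turned with the trend on GC content removed. The ribosomal protein genes were then highest in RIPK4.si replicate 2 (0.40, 37 of 74 highest) ahead of neg.si replicate 1 (0.36, 34 of 74), and the TRiC genes lowest in neg.si replicate 3 (-0.24, 5 of 8 lowest), close to RIPK4.si replicate 1 (-0.23, 2 of 8), so no difference from the proteasome genes is read from them. Neither list had a called gene.

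Most of the proteasome genes moved together across the libraries. The log2 CPM of 25 of the 45 genes correlated above 0.8 with the median of the other proteasome genes over the 6 libraries, and the median correlation was 0.855. These correlations are descriptions over libraries that share depth and normalisation. No share of all tested genes is given beside them, so they are not read as particular to the proteasome genes. Over the 45 genes the correlation rose with GC content (Spearman rho 0.304), and it was taken without removing the GC trend. The highest were those of PSMA5 (0.982), PSMB1 (0.980) and PSMC2 (0.979). The correlation was below 0 for 7 genes, of which 3 were assembly chaperones (PSMD5, PSMD10 and PSMG1), 1 was a proteasome activator (PSME4) and 3 were subunits (PSMA1, PSMD1 and PSMD12). PSMD5, a 19S chaperone that in excess inhibits 26S assembly, was farthest at -0.929. It stood at 32.7, 43.7 and 53.2 CPM in neg.si and 47.3, 27.1 and 44.4 CPM in RIPK4.si, so that it was high in neg.si replicate 3, where most subunits were low, and lowest in RIPK4.si replicate 2. PSMD5 and the genes of the highest correlations were picked after their values were seen.

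Levels were compared between genes per kilobase of the canonical transcript. This length was chosen after seeing the data, and the order at both ends depended on it. In neg.si the highest were PSME2 (253 ± 34.0 CPM per kb), the beta subunit PSMB4 (244 ± 69.4) and the alpha subunit PSMA7 (236 ± 77.3; SD, n = 3). These 3 neighbours in the order did not differ beyond their spread. Per kilobase of the union of exons PSMB3 was highest (135 CPM per kb), and per kilobase of the longest transcript PSMA7 (222 CPM per kb), with PSME2 at 56.1 and 72.9. The lowest was PSMD9, at 1.61 ± 0.371 CPM per kb, whereas under both other lengths it was PSMA6, at 0.372 and 0.511 CPM per kb. The subunits of the 20S core occur in equal numbers in the finished particle, while their transcript levels per kilobase differed here. The extent depended on the length used and on the overlaps described next. In 5 of the lowest 7 proteasome genes per kilobase (PSMA1, PSMB10, PSMA2, PSMA6 and PSMD9) a same-strand gene in the annotation covers part or all of the transcript, and the same 5 were among the lowest 7 under each of the 3 lengths. Among the lowest 5 they numbered 4 per kilobase of canonical transcript and 3 under either other length. Per kilobase of canonical transcript the other 2 of the lowest 7 were PSMF1 (6.77 CPM per kb), which lay between PSMA1 and PSMB10, and PSMC3IP, and no same-strand gene covers the canonical transcript of either.

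In these 5 genes, a protein-coding readthrough gene of GENCODE release 44, which joins the proteasome gene to a neighbour on the same strand, shares 67.0% of the canonical PSMA1 transcript, all of PSMA2, 81.4% of PSMA6, 56.1% of PSMB10 and 28.8% of PSMD9. The authors counted read pairs per gene with HTSeq, and pairs that match 2 genes can be left unassigned by that tool; its setting for such pairs is not given in the sources used here. Of the 5 readthrough genes, only the one over PSMB10 was listed in the table, with 0 to 4 counts per library. The 5 proteasome genes lay between 1.61 and 7.54 CPM per kb, while the median of the other 40 was 59.7 CPM per kb, 7.93-fold the highest of the 5. The part of this overlap in their low level was not tested. The levels and the fold changes of all 5 genes are therefore uncertain. PSMA6 was counted 40 to 129 times per library and had a log2 fold change of 0.61 (SE 0.350, adjusted p = 0.623, edgeR).

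The 11 constitutive 20S subunits without such a readthrough gene lay between 38.0 and 244 CPM per kb (median 163), a 6.43-fold range. The range was 4.68-fold per kilobase of the union of exons and 5.85-fold per kilobase of the longest transcript. The 17 subunits of the 19S particle lay between 15.2 and 172 CPM per kb (median 64.1). PSMC1, PSMD7, PSMC5 and PSMC3IP share at least 10% of their canonical transcript with a gene on the opposite strand, and since strand was ignored in counting, their values are uncertain as well. PSMC1, the lowest 19S subunit at 15.2 CPM per kb, shares 83.2% of its transcript with NRDE2. PSMC3IP (2.31 CPM per kb) met the rule by its name alone: it encodes a meiotic recombination partner named for binding PSMC3 and is no proteasome subunit.

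**Figure D4:**
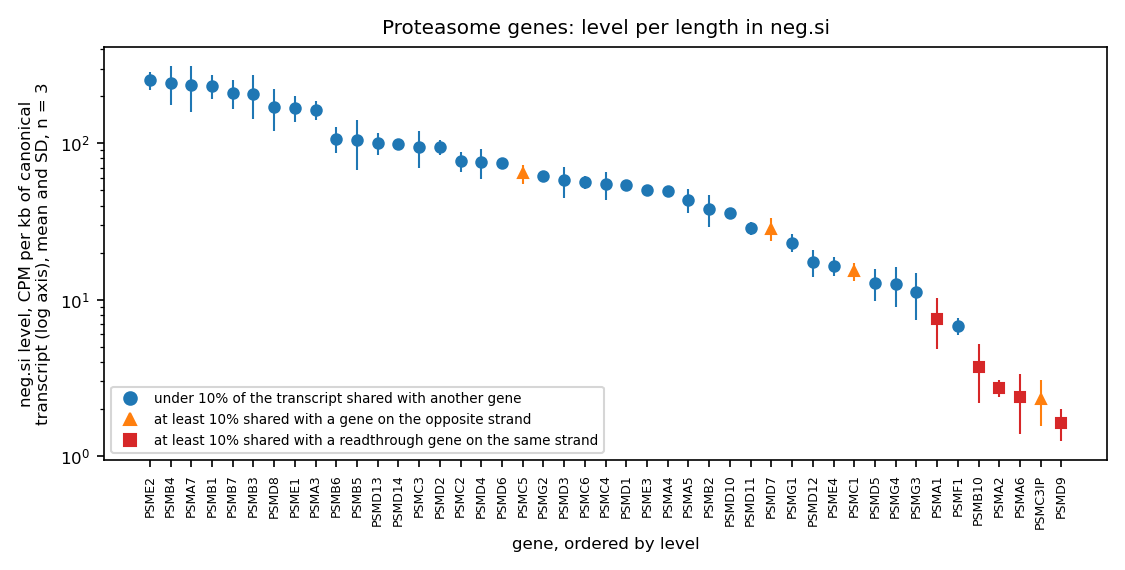
Mean level of each proteasome gene in neg.si per kilobase of canonical transcript on a log axis, with the SD over 3 libraries, ordered from highest to lowest. Red squares mark the 5 genes that share at least 10% of the transcript with a readthrough gene on the same strand, all of them below 8 CPM per kb; orange triangles mark overlap on the opposite strand.

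The promoters of 39 proteasome genes were found in the RefSeq table for GRCh38.p14, each covering 250 bases before and 50 after the transcript start. The core of the antioxidant response element, to which NFE2L1 and NFE2L2 bind (TGACNNNGC, either strand), was present in 12 of the 39 (30.8%), against 13.6% of all 27305 promoters and 15.1% of the 11037 promoters of tested genes. The CCAAT box, bound by NF-Y (CCAAT, either strand), was present in 18 (46.2%; 36.5% of tested genes), an ETS-type sequence (CCGGAAGT, either strand) in 7 (17.9%; 8.37% of tested genes) and the GC box of SP1 (GGGCGG, either strand) in 26 (66.7%; 68.2% of tested genes). These are matches of letters in a window and were not tested for occupancy. Of the genes with a promoter in the table, the antioxidant response core was present in 5 of 20 that correlated above 0.8 with the median of the others, in 2 of 12 between 0 and 0.8, and in 5 of 7 below 0 (PSMD1, PSMD5, PSMD12, PSME4 and PSMG1). The bases before the start are shown 5′ to 3′ on the gene's strand for PSMB3, a structural subunit whose window holds 3 of the 4 sequences searched, and for PSMD10, the called gene. Capitals mark a GC box, the antioxidant response core TGACTTTGC and 2 CCAAT boxes in PSMB3, and in PSMD10 a single CCAAT box on the other strand.
PSMB3, chr17:38752491-38752740, plus strand: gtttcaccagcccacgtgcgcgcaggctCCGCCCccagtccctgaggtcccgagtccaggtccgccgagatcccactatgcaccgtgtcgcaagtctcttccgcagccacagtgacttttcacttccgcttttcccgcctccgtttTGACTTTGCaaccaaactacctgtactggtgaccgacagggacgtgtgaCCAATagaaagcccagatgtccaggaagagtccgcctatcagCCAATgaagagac
PSMD10, chrX:108091543-108091792, minus strand: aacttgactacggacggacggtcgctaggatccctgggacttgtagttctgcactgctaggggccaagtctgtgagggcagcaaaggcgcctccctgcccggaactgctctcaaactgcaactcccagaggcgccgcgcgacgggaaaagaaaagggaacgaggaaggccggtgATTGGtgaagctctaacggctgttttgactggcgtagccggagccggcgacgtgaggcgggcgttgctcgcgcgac

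The genes that act around the proteasome gave no called change. NFE2L1 was at 449 ± 75.3 CPM in neg.si and 506 ± 13.4 CPM in RIPK4.si (SD, n = 3; log2 fold change 0.17, adjusted p = 0.832, edgeR). POMP, the maturation factor of the 20S core, was at 250 ± 12.8 and 287 ± 97.3 CPM (log2 fold change 0.20, adjusted p = 0.868, edgeR), and RIPK4.si replicate 2 was its highest library, at 396 CPM. None of 12 other subunits, cofactors and assembly factors, of 9 genes of the NFE2L1 pathway and of 14 ubiquitin, E1 and shuttle factor genes was called, and none had an unadjusted p under 0.05 in either direction. The median log2 fold changes of these lists were 0.028, 0.14 and 0.058.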

How the data were processed

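Poly(A) RNA of 3 neg.si and 3 RIPK4.si cultures was sequenced by the authors as paired reads on BGISEQ-500; reads were trimmed with cutadapt, aligned with TopHat (both named in the submitters' processing notes, with GRCh38.p13) and counted per gene with HTSeq without strand. The deposited counts are whole numbers, not normalised. Deposited size-factor-scaled values and the authors' own fold changes and p-values were not used.

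The main test was that of edgeR 4.0.16, run under R 4.3.3 (TMM, filterByExpr, quasi-likelihood test, Benjamini-Hochberg adjustment over 16297 genes); DESeq2 1.42.0 was an alternative. The standard error is the fold change divided by the square root of F. CPM values use TMM-scaled library sizes. Deviations were taken on log2 CPM (prior count 2). Gene overlap, lengths, GC content and 3′ UTRs came from GENCODE release 44, in which 24416 genes were found. The edgeR and DESeq2 fits were also tested on simulated data. Chi-square comparison found no replicate pair within sampling noise. Depth limits precision most for genes with few counts.

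The members and lists were chosen with earlier results of these data known. Genes named were RIPK4, called members, the 5 higher and 5 lower members of smallest p, catalytic subunits, PSMA8, activators and inhibitor, the highest and lowest per length, overlapped members, members matched by name only, and NFE2L1, POMP, PSMB8 and PSMB9; others named were picked after their values were seen.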

Additional observations from a re-analysis of the deposited data

How the results depend on the processing

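PSMD10 kept its call with DESeq2, with DESeq2's size factors or upper-quartile normalisation in edgeR, with no filter on low counts, with at least 10 counts in every library, with the GC trend removed and without neg.si replicate 1 or 3. Genes called over all genes numbered 125, and 437 with DESeq2, 532 with the GC trend removed, 442 with the GC trend removed and the replicate block, and 0 to 295 when 1 library was left out. Proteasome genes called numbered 1, and 2 with DESeq2 (PSMA1, PSMD10), 2 with the GC trend removed (PSMD10, PSMD11), 2 with the GC trend removed and the replicate block (PSMA1, PSMD10), and 0 to 2 when 1 library was left out. The median log2 fold change of the proteasome genes ran from -0.017 to 0.24 when 1 library was left out, and that of RIPK4 from -2.06 to -1.74, with adjusted p-values between 0.0622 and 0.106 (edgeR) where it lost its call. With 1 library out, log2 fold changes ran from -0.016 to 0.51 for PSMB5, -0.11 to 0.20 for PSMB7, -0.088 to 0.12 for PSMC1, -0.031 to 0.46 for PSMC3IP, -0.15 to 0.13 for PSME1, -0.42 to 0.094 for PSMA2, -0.090 to 0.40 for POMP, -0.29 to 0.14 for PSMB8 and -0.19 to 0.12 for PSMB9; none of these was called. Values that kept their sign but ranged widely were 0.10 to 0.67 for PSMB10, 0.30 to 0.82 for PSMA6, 0.020 to 0.30 for PSMB6, -0.37 to -0.057 for PSMD9, -0.24 to -0.044 for PSMC5, 0.017 to 0.24 for PSMD7, 0.11 to 0.28 for PSME2, 0.085 to 0.25 for PSME4 and 0.052 to 0.30 for NFE2L1; none of these was called. PSMB9 was also at 0.0059 with the GC trend removed and at 0.013 with the block added. Replicate numbers were not treated as pairs in the main test. Same-numbered deviations correlated at -0.242, 0.251 and 0.346, which cannot settle whether the libraries were paired. With the replicate block, 131 genes and 1 proteasome gene (PSMD10) were called, and the median of the proteasome genes was 0.12. The median level of the proteasome genes in neg.si was 54.5 CPM per kb of canonical transcript, a length chosen after seeing the data, 22.0 per kb of the union of exons and 41.4 per kb of the longest transcript; PSME2 ranked 1, 11 and 14 and PSMD9 ranked 45, 43 and 43 of 45 under these lengths. The causes were not tested.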
